A study of Mus musculus with 21 samples.

Results

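The mRNA levels of 10 genes of mRNA storage and translation control were followed through the late stages of mouse spermatogenesis. The genes are *Ybx1*, *Ybx2* and *Ybx3*, the poly(A)-binding protein genes *Pabpc1* and *Pabpc2*, the poly(A) polymerase gene *Papolb*, the RNA helicase gene *Ddx25*, the DAZ family genes *Boll* and *Dazl*, and *Ptbp2*. The genes were chosen by name from what their proteins do, with earlier results of these data known. All 10 are among the 24456 genes counted in each of the 21 RNA-seq libraries. The libraries came from purified spermatogenic cell fractions. There were 3 libraries per genotype, wild type or *H2al2* KO, at each of 3 stages (pachytene spermatocytes, round spermatids, condensing spermatids). Spermatozoa gave 2 libraries for the wild type and 1 for the KO. *H2al2* encodes H2A.L.2, a histone variant of late spermatids that takes part in the exchange of histones for protamines. No other treatment or allele is named in the labels, and the design of the KO allele, the strain and the age of the mice are not given in the sources used here. The labels also do not say whether replicates came from separate animals, so the p-values below measure the spread between these libraries, which may be in part technical.

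Spermatids stop transcribing as their chromatin is compacted, so proteins made late depend on mRNAs that were transcribed earlier and stored without being translated. The Y-box proteins YBX1, YBX2 and YBX3 bind such mRNAs through a cold shock domain, and YBX2 is the abundant germ cell form. The length of the poly(A) tail and the proteins bound to it set how well a stored mRNA is translated. PAPOLB is a testis-specific poly(A) polymerase of the cytoplasm, PABPC1 is the general cytoplasmic poly(A)-binding protein and PABPC2 is its testis-specific relative. DDX25 is a testicular DEAD-box helicase that takes part in the export and translation of spermatid mRNAs. DAZL and BOLL bind the 3′ parts of mRNAs and regulate their translation, DAZL from early germ cells onward and BOLL from meiosis onward. PTBP2 regulates alternative splicing and the stability of mRNAs in spermatocytes.

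The Y-box proteins are named after the Y box, a promoter element with the inverted form of CCAAT, and the promoters of the members were therefore searched for these letters. RefSeq promoter windows of 300 bases on GRCm38.p6 (mm10), from 250 bases before to 50 bases after the annotated start, were given for 8 of the 10 genes. *Ybx2* and *Boll* had 2 windows each, and distances below are from the start of the window that holds the match. Such a start can lie inside the gene in another annotation. GENCODE begins *Boll* at chr1:55363469, *Ddx25* at chr9:35558528 and *Ybx1* at chr4:119294604, all on the minus strand. It begins *Ybx2* at chr11:69935796 on the plus strand. The matches of *Boll* and *Ddx25* below are therefore within those genes. So are the *Ybx1* match at 52 bases and the *Ybx2* match at 87 bases. The RefSeq limits of *Ybx1* reach chr4:119296265 and hold all 3 of its matches. The letters CCAAT, or ATTGG for the same element on the other strand, were found in the windows of 6 of these 8 genes, and in 11096 (41.1%) of all 27025 genes with a window. *Ybx3* and *Ptbp2* had no match, and *Pabpc1* and *Pabpc2* had no window. The 29 bases around each match are shown on the strand of the gene, 5′ to 3′, with the match in capitals, so that its place and neighbours can be compared between members.
Ybx1, chr4:119294632-119294660, minus strand, 135 bases before the start: tcgctaaagataCCAATgagagcgcagga
Ybx1, chr4:119294600-119294628, minus strand, 103 bases before the start: gcggagcgtgagCCAATaggcgctagaga
Ybx1, chr4:119294549-119294577, minus strand, 52 bases before the start: caacgatgcggaCCAATgggggaggacga
Ybx2, chr11:69935747-69935775, plus strand, 140 bases before the start: tgcgcggctacgATTGGccggcggccggg
Ybx2, chr11:69935800-69935828, plus strand, 87 bases before the start: cagccgactgcgATTGGcctcggctcagg
Papolb, chr5:142530133-142530161, minus strand, 73 bases before the start: cgagaatttcctCCAATctcgtgagagcg
Ddx25, chr9:35558463-35558491, minus strand, 9 bases before the start: cggagcctgaccATTGGccactgagccga
Boll, chr1:55362765-55362793, minus strand, 53 bases before the start: cccggccgccagCCAATcagcatgcgccc
Dazl, chr17:50293651-50293679, minus strand, 47 bases before the start: gcgctgccgcctATTGGctgtagcacgtc
*Ybx1* carried 3 matches and *Ybx2* carried 2, in opposite orientations, and the other 4 genes carried 1 each. A pair of longer elements was searched in the same windows on both strands. TGACGTCA, the site of cyclic AMP response factors, was in no member and in 2.03% of all genes, and AACTGCC was in no member and in 4.76% of all genes. A match is a description of the window and not evidence of a bound site.

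The libraries held 2772995 to 8201682 counts on genes, and spermatozoa were the shallowest. Where a gene had 0 counts, up to 3 remain possible, equal to 0.366 to 1.08 CPM (counts scaled to a common library size). Of the reads that entered the counting, 34.6% to 57.7% were not assigned to a gene. This share pools all reasons for leaving a read out, such as alignment to several places. The gene of H2A.L.2 was checked through *H2afb1*, an older symbol that RefSeq also gives to an X-linked gene. *H2afb1* had 1495, 1480 and 1458 reads in wild-type and 182, 173 and 144 reads in KO round spermatids, and at each stage its highest KO level lay under its lowest wild-type level. Wild-type round spermatid replicates 2 and 3 stood closer to each other than any other pair of replicates. Their mean chi-square over 5617 genes was 1.06, near the value of pure counting noise, while other replicate pairs had 1.72 to 12.2. They were kept as 2 libraries, and a fit with both summed into 1 library is given where it changed a result. In bulk samples, fewer cells of a type and less RNA per cell cannot be told apart.

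Although single genes such as *Dazl* and *Ptbp2* stood far below *Pabpc1*, the members as a sum were abundant until the end of spermatid differentiation. Together they took 1.07% ± 0.0314 (SD, n = 3) of all counts on genes in wild-type pachytene spermatocytes, 0.963% ± 0.0125 (SD, n = 3) at the round stage, 0.731% ± 0.0830 (SD, n = 3) in condensing spermatids and 0.239% ± 0.00924 (SD, n = 2) in spermatozoa. In KO libraries the shares were 1.05% ± 0.0314, 0.964% ± 0.0359 and 0.716% ± 0.0278 (SD, n = 3 each), and 0.194% in the single spermatozoa library. The direction from pachytene to round libraries depended on the scaling. In the wild type the summed level of the members was 10729.5 and then 9626 CPM with scaling by library size alone, and 9656 and then 10449 CPM with DESeq2 size factors.

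**Figure D1:**
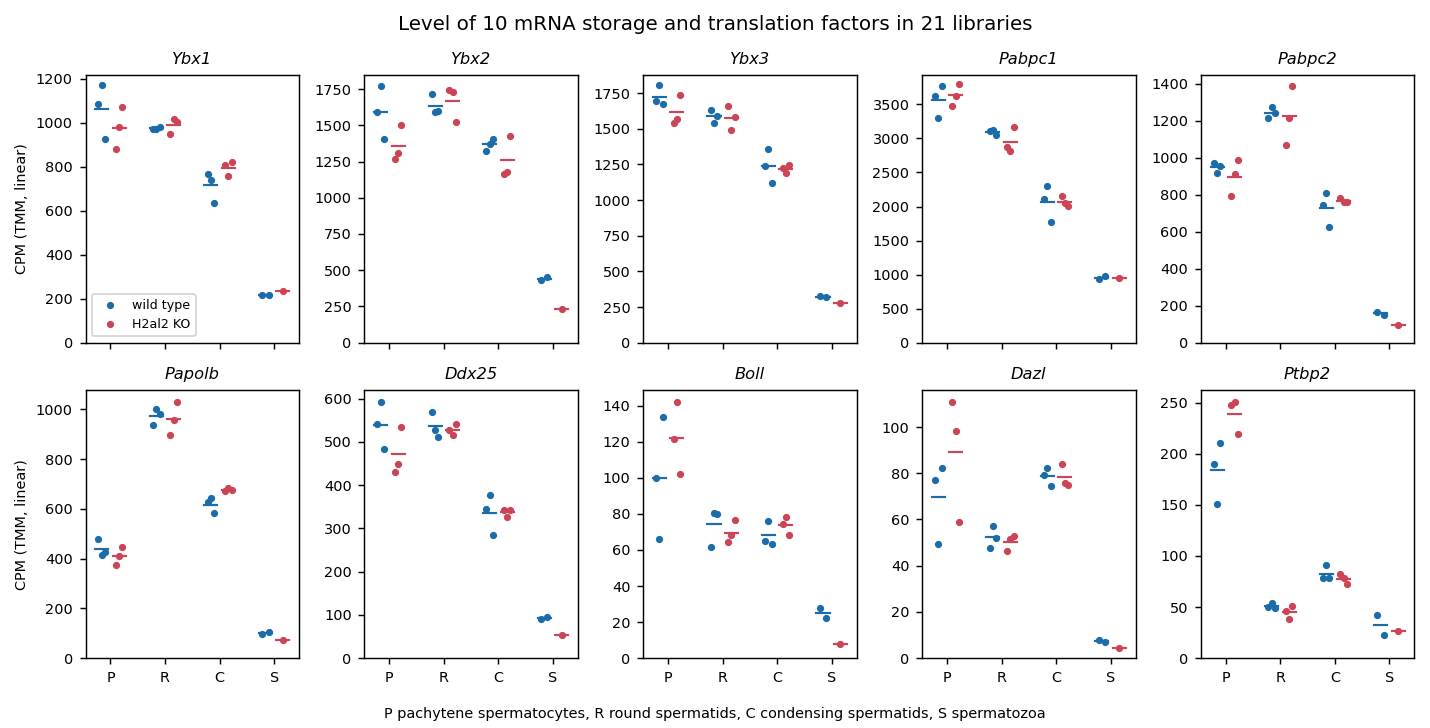
Level of each of the 10 genes in CPM on a linear axis from 0, by stage, with wild-type libraries in blue and *H2al2* KO libraries in red. Points are libraries and bars are group means (3 libraries, and for spermatozoa 2 wild-type and 1 KO). *Papolb* is highest in round spermatids, *Ptbp2* is highest in pachytene spermatocytes, and every gene is lowest in spermatozoa in the wild type.

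In wild-type pachytene spermatocytes, *Pabpc1* stood at 1265 ± 85.9 CPM per kb of exon (SD, n = 3), above *Ybx3* at 913 ± 36.2 and *Ybx2* at 877 ± 101, and these last genes did not differ beyond their spread. *Ybx1* followed at 652 ± 76.8 and *Pabpc2* at 366 ± 11.3. At the low end stood *Boll* at 71.6 ± 24.1, *Ptbp2* at 37.4 ± 6.09 and *Dazl* at 22.8 ± 5.76. In condensing spermatids *Ybx2* (755 ± 22.8), *Pabpc1* (732 ± 94.7) and *Ybx3* (654 ± 63.4) overlapped with their neighbours in this order, so that no gene stood clear at the top. The places of *Ddx25* and *Papolb* depended on the annotation, because GENCODE gives them 6.93 kb and 4.24 kb of exon where the RefSeq limits hold 1.68 kb and 2.34 kb. In wild-type pachytene spermatocytes *Ddx25* stood at 77.9 CPM per kb with the longer and 322 with the shorter length, and *Papolb* at 104 and 188. Stage changes of a gene do not depend on its length. Reads of *Ybx1* and *Pabpc1* may be undercounted, because 13.3% and 11.2% of the 75-base stretches of their transcripts also occur in transcripts of other genes, and reads that aligned to several places were not counted. The 8 other members shared no such stretch.

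Between pachytene spermatocytes and round spermatids, *Papolb* and *Pabpc2* rose, *Ptbp2* fell and the other 7 members did not pass in the wild type. In the wild type 2 of 10 members rose and 1 fell (edgeR's quasi-likelihood test, adjusted p under 0.05 over 14011 genes). Of all genes tested, 34.4% rose, 35.9% fell and 70.3% passed in either direction. The median log2 fold change was -0.088 over the members and -0.016 over all genes. In the KO libraries, which share no sample with the wild type, 3 members rose and 4 fell, against 36.5% higher, 38.4% lower and 74.9% in all of 13877 genes. The KO calls beyond those of the wild type were *Ybx2*, higher, and *Pabpc1*, *Boll* and *Dazl*, lower. Wild-type pachytene and round libraries did not overlap for 5 of 10 members and 75.0% of 13487 genes, and KO libraries for 7 members and 75.8% of 13416 genes. Scaling by library size alone moved the median of all genes to -0.20 in the wild type and -0.15 in the KO, and then 1 member was higher and 4 lower in the wild type and 2 higher and 5 lower in the KO.

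Between round and condensing spermatids most members fell, and *Dazl* and *Ptbp2* rose. In the wild type 2 of 10 members rose and 6 fell, where 28.3% of all 14011 genes rose, 21.8% fell and 50.0% passed in either direction. The median log2 fold change was -0.38 over the members and 0.043 over all genes. In the KO libraries 2 members rose and 7 fell, where 29.7% of 13877 genes rose, 24.5% fell and 54.2% passed. Round and condensing libraries did not overlap for 9 of 10 members in either genotype, against 61.4% of 14236 genes in the wild type and 60.9% of 14189 in the KO. This step shares the round spermatid libraries with the step before it. Scaling by library size alone, which moved the median of all genes to 0.11 in the wild type, left 2 members higher and 5 lower.

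**Figure D2:**
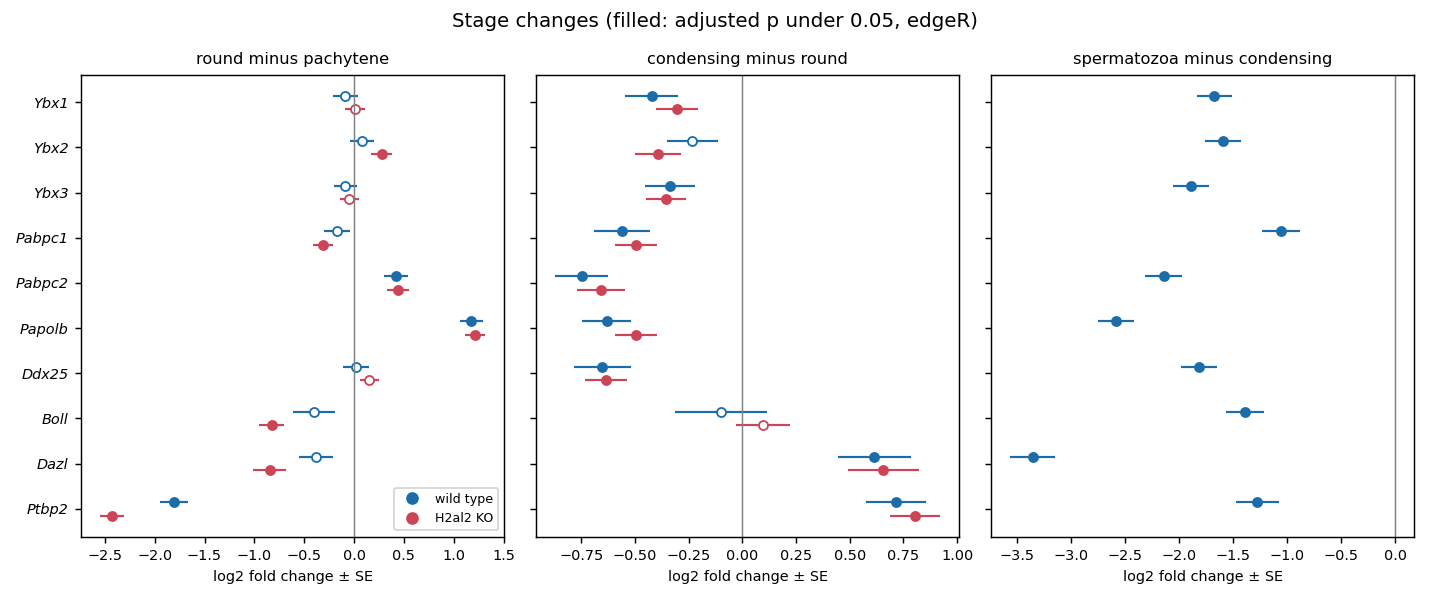
Log2 fold change of each member with its standard error, for round minus pachytene, condensing minus round and spermatozoa minus condensing libraries. Blue is wild type, red is *H2al2* KO, and filled points passed an adjusted p of 0.05 in edgeR. *Papolb* is at 1.18 and 1.21 in the first panel, *Ptbp2* is to the left in the first and to the right in the second, and all 10 genes are to the left of 0 in the third.

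The Y-box genes did not pass at the first step in the wild type, and *Ybx1* and *Ybx3* fell at the second. *Ybx1* had 1087, 1172 and 926 CPM in wild-type pachytene libraries, 970.1, 974 and 982 in round libraries and 769, 741 and 638 in condensing libraries. Its KO libraries had 879, 979 and 1070.0, then 949.8, 1018 and 1005, then 807, 756 and 820.4 CPM. Pachytene and round libraries overlapped in both genotypes, while every condensing library was below every round library. The second step was a fall by 0.42 ± 0.12 (SE) on the log2 scale in the wild type (adjusted p = 0.0133, edgeR) and by 0.31 ± 0.098 in the KO (adjusted p = 0.0133). Without KO condensing replicate 2 or KO round replicate 2 the KO call was lost, and its adjusted p ranged from 0.00348 to 0.0720 over the alternatives.

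*Ybx2*, the germ cell form that gathers stored mRNAs, had 1589.5, 1773 and 1405 CPM in wild-type pachytene libraries, 1713, 1592 and 1601 in round libraries and 1325, 1371 and 1408 in condensing libraries. In the KO, libraries had 1268, 1308 and 1503, then 1742, 1730.0 and 1522, then 1164, 1181 and 1428 CPM. Each condensing library was below each round library of its genotype. In the wild type the log2 fold changes were 0.074 ± 0.12 and -0.23 ± 0.12 (adjusted p = 0.598 and 0.125), neither of which passed. In the KO *Ybx2* rose by 0.28 ± 0.11 (adjusted p = 0.0228) and then fell by 0.39 ± 0.11 (adjusted p = 0.00409). The rise in the KO was lost with library-size scaling and without 4 of the 6 libraries, each in turn (KO pachytene replicates 1 and 2, KO round replicates 1 and 2), and its adjusted p ranged from 0.00912 to 0.234. DESeq2 called the fall in the wild type as well, where the adjusted p ranged from 0.0114 to 0.266.

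*Ybx3* had 1697, 1804 and 1677 CPM in wild-type pachytene libraries, 1635, 1542 and 1587 in round libraries and 1239, 1356 and 1117 in condensing libraries. Among KO libraries the values were 1544, 1569 and 1738, then 1661, 1488 and 1583, then 1228, 1188 and 1246 CPM. Again the condensing libraries were the low ones, with no overlap with round libraries. *Ybx3* fell by 0.34 ± 0.12 in the wild type (adjusted p = 0.0290) and by 0.36 ± 0.094 in the KO (adjusted p = 0.00347). The wild-type call was lost under 8 of 12 alternatives, among them the fit with round replicates 2 and 3 summed and the omission of any one of the 3 round libraries or of condensing replicate 1 or 3, and its adjusted p ranged from 0.000385 to 0.0895.

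The genes of the poly(A)-binding proteins differed at the first step and both fell at the second. *Pabpc1*, whose product coats poly(A) tails in all cells, had 3623, 3299 and 3772 CPM in wild-type pachytene libraries, 3104, 3117 and 3049 in round libraries and 2107, 2302 and 1774 in condensing libraries. In the KO the same stages had 3478, 3619 and 3795, then 2868, 2815 and 3172, then 2155, 2056 and 2003 CPM. The 3 stages did not overlap in either genotype. The first change was -0.17 ± 0.13 in the wild type, which did not pass (adjusted p = 0.242), and a fall by 0.31 ± 0.098 in the KO (adjusted p = 0.00750). With scaling by library size alone the wild-type change was -0.36 and passed (adjusted p = 0.0316, edgeR). *Pabpc1* then fell by 0.56 ± 0.13 in the wild type (adjusted p = 0.00322) and by 0.50 ± 0.098 in the KO (adjusted p = 0.000311).

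*Pabpc2*, a gene of 1 exon on chromosome 18, had 973, 916 and 954 CPM in wild-type pachytene libraries, 1213, 1272 and 1241 in round libraries and 747, 809 and 627 in condensing libraries. KO libraries gave 792, 911 and 987, then 1070.4, 1215 and 1385, then 784, 762 and 761 CPM. The round libraries were above both neighbouring stages without overlap. *Pabpc2* rose by 0.42 ± 0.12 in the wild type (adjusted p = 0.00720) and by 0.44 ± 0.11 in the KO (adjusted p = 0.00155), and then fell by 0.75 ± 0.12 and 0.66 ± 0.11 (adjusted p = 0.000323 and 6.83e-05). The rise in the wild type did not pass with scaling by library size alone, and its adjusted p ranged from 0.000636 to 0.130.

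*Papolb*, the testis poly(A) polymerase and also a gene of 1 exon, had the largest rise of the members. It had 481, 415 and 425 CPM in wild-type pachytene libraries, 939, 999.9 and 980.5 in round libraries and 629, 643 and 582 in condensing libraries. For the KO the values were 373, 413 and 447, then 898, 958 and 1031, then 672, 684 and 675 CPM. Round libraries were the highest and pachytene libraries the lowest in both genotypes, with no overlap. *Papolb* rose 2.26-fold in the wild type (log2 1.18 ± 0.11, adjusted p = 1.15e-06) and 2.32-fold in the KO (1.21 ± 0.10, adjusted p = 1.29e-09). It then fell by 0.63 ± 0.11 and 0.49 ± 0.099 on the log2 scale (adjusted p = 0.000653 and 0.000334). All of these calls held under each alternative.

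*Ddx25*, the gene of the spermatid helicase, did not pass at the first step with all libraries and fell at the second. It had 542, 593 and 485 CPM in wild-type pachytene libraries, 569.6, 527 and 512 in round libraries and 346, 378 and 284 in condensing libraries. In KO libraries it had 430.2, 450.0 and 534, then 528, 516 and 542, then 343, 326 and 342 CPM. Pachytene and round libraries overlapped, and condensing libraries stood below both. The first change was 0.15 ± 0.097 in the KO (adjusted p = 0.160), and without KO pachytene replicate 3 it was 0.24 and passed (adjusted p = 0.0307). The fall into condensing spermatids was 0.65 ± 0.13 on the log2 scale in the wild type (adjusted p = 0.00141) and 0.64 ± 0.097 in the KO (adjusted p = 2.33e-05).

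The DAZ family genes were the members with the widest spread in pachytene spermatocytes. *Boll* had 99.99, 66.3 and 134 CPM in wild-type pachytene libraries, 61.6, 80.7 and 80.2 in round and 65.1, 76.0 and 63.1 in condensing libraries. Values in the KO were 122, 142 and 102, then 64.1, 68.3 and 76.5, then 74.2, 78.5 and 68.3 CPM. Wild-type pachytene replicate 2 lay within the range of the round libraries, and the KO pachytene libraries lay above all KO round libraries. *Boll* fell by 0.82 ± 0.12 in the KO (adjusted p = 6.52e-06), and its change of -0.40 ± 0.21 in the wild type did not pass (adjusted p = 0.107). That change depended on the pachytene libraries and the scaling. It was -0.63 without wild-type pachytene replicate 2 (adjusted p = 0.00358) and -0.60 with scaling by library size alone (adjusted p = 0.0283), both of which passed, and -0.13 without wild-type pachytene replicate 3 (adjusted p = 0.501). From round to condensing spermatids the changes of *Boll* were -0.099 ± 0.21 and 0.097 ± 0.13, and neither passed (adjusted p = 0.725 and 0.540).

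*Dazl* had 77.0, 49.5 and 82.1 CPM in wild-type pachytene libraries, 47.5, 57.0 and 52.2 in round and 79.4, 82.3 and 74.3 in condensing libraries. KO values were 111, 98.2 and 59.0, then 46.2, 51.6 and 52.7, then 83.9, 75.8 and 75.1 CPM. *Dazl* was thus low in round libraries and higher again in every condensing library. It fell by 0.85 ± 0.17 into KO round spermatids (adjusted p = 0.000128), and its change of -0.38 ± 0.17 in the wild type did not pass (adjusted p = 0.0618). It was -0.58 without wild-type pachytene replicate 2 (adjusted p = 0.000816) and -0.24 without replicate 3 (adjusted p = 0.194), and it also passed with scaling by library size alone (-0.57, adjusted p = 0.0118) and without the filter (-0.41, adjusted p = 0.0389). *Dazl* rose into condensing spermatids by 0.61 ± 0.17 in the wild type (adjusted p = 0.00976) and 0.66 ± 0.17 in the KO (adjusted p = 0.00256). Without wild-type condensing replicate 2 the wild-type rise missed the threshold (adjusted p = 0.0507, with 0.00668 to 0.0507 over the alternatives).

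*Ptbp2* changed most among the members before spermatozoa. It had 189.6, 151 and 210.0 CPM in wild-type pachytene libraries, 50.2, 54.4 and 49.3 in round and 78.6, 91.1 and 78.5 in condensing libraries. Those of the KO were 248, 251 and 219, then 45.6, 38.4 and 50.8, then 82.1, 78.1 and 72.6 CPM. The 3 stages did not overlap in either genotype. *Ptbp2* fell 3.50-fold in the wild type (log2 -1.81 ± 0.14, adjusted p = 2.05e-07) and 5.38-fold in the KO (-2.43 ± 0.12, adjusted p = 6.43e-13). It then rose by 0.71 ± 0.14 and 0.80 ± 0.12 on the log2 scale (adjusted p = 0.00118 and 1.36e-05). All of these calls held under each alternative.

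Markers of other cells moved beside these changes. Among the pachytene libraries, wild-type replicate 2 had the lowest sum of 15 spermatocyte markers (2197 CPM, against 2378 and 2916) and the lowest *Boll*, *Dazl* and *Ptbp2*, and the KO library with the lowest sum (replicate 3 at 2637 CPM, against 3249 and 3312) had the lowest of the same 3 genes in its group. From pachytene spermatocytes to round spermatids, where *Papolb* and *Pabpc2* rose and *Ptbp2* fell, 8 of 8 Leydig cell markers were lower in the wild type (median log2 fold change -3.23, sum 82.5 to 169.9 CPM and then 11.6 to 15.5 CPM). All 6 tested macrophage markers were higher (median 2.78, sum 2.93 to 4.90 CPM and then 22.8 to 26.7 CPM), and so were 5 of 11 Sertoli cell markers, with none lower. In the KO 7 of 7 Leydig cell markers were lower, and 4 of 4 macrophage and 6 of 11 Sertoli cell markers were higher. From round to condensing spermatids, where *Dazl* and *Ptbp2* rose, 11 of 11 tested Sertoli cell markers and 8 of 8 Leydig cell markers were higher in the wild type, and 11 of 11 and 7 of 7 in the KO. The sum of 12 Sertoli cell markers was 62.3 to 86.6 CPM in wild-type round and 628 to 821 CPM in condensing libraries, and that of 8 Leydig cell markers was 11.6 to 15.5 and 153 to 239 CPM. Of germ cell markers of earlier stages, 6 of 9 for spermatogonia were higher and none lower, and 7 of 15 for spermatocytes were higher and 2 lower, where 28.3% of all genes rose and 21.8% fell. The spermatocyte sum was 901 to 992 CPM in wild-type round and 1116 to 1329 CPM in condensing libraries. No marker of these 5 lists was at 0 in all libraries of a wild-type group at these stages, and their part in the changes of the members was not tested.

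**Figure D3:**
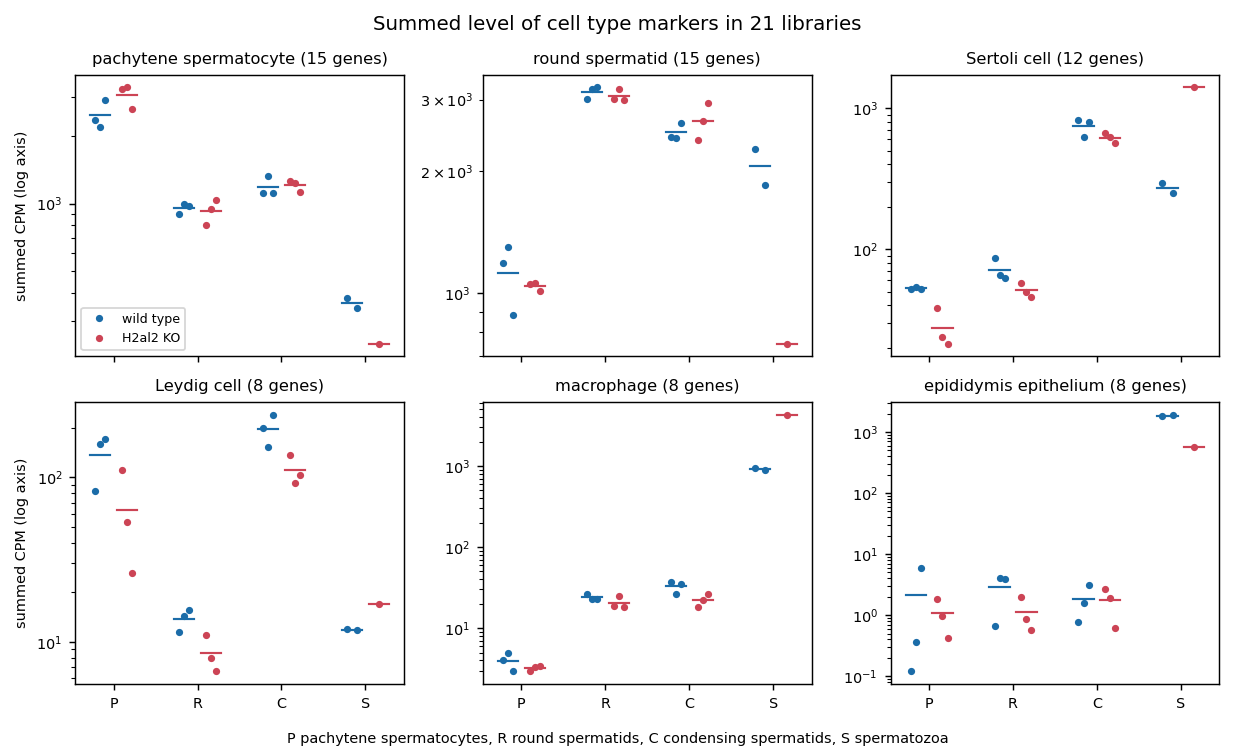
Summed CPM of 6 lists of cell type markers on logarithmic axes, by stage, with wild-type libraries in blue, *H2al2* KO libraries in red and group means as bars. The wild-type Sertoli cell sum is 62.3 to 86.6 CPM in round and 628 to 821 CPM in condensing libraries, and the macrophage and epididymis sums are highest in spermatozoa.

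Ratios of reads between related genes within a library do not depend on how libraries are scaled, and 6 ratios were compared at both steps. Stage labels were exchanged within each genotype, 6 libraries against 6, in an exact two-sided permutation test with 400 arrangements, whose smallest p is 0.005, and p-values were adjusted over the 12 tests. *Pabpc1* reads were 3.60 to 3.95 times those of *Pabpc2* in wild-type pachytene, 2.45 to 2.56 times in round and 2.82 to 2.84 times in condensing libraries. The log2 ratio fell by 0.67 at the first step (adjusted p = 0.00750, exact permutation test) and rose by 0.17 at the second (adjusted p = 0.0133). *Papola*, the gene of the general poly(A) polymerase, had 0.270 to 0.349, then 0.181 to 0.203, then 0.227 to 0.263 reads per *Papolb* read in the wild type. That log2 ratio fell by 0.84 and rose by 0.32 (adjusted p = 0.00750 for both, exact permutation test).

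The balance of *Ptbp2* with its relative *Ptbp1*, which most other cells use, shifted between stages. Reads of *Ptbp1* per read of *Ptbp2* were 0.602 to 1.02 in wild-type pachytene, 1.74 to 1.97 in round and 0.815 to 1.07 in condensing libraries, so round spermatids held more *Ptbp1* than *Ptbp2* reads. The log2 ratio rose by 1.62 and then fell by 1.07 (adjusted p = 0.00750 for both, exact permutation test). For *Ptbp1* 15.4% of the 75-base stretches also occur in other genes. A ratio of reads does not account for the lengths of the genes. Per kb of exon, mean *Ptbp1* and *Ptbp2* were 40.8 and 37.4 CPM in wild-type pachytene libraries. They were 27.5 and 10.4 in round and 21.8 and 16.8 in condensing libraries, so *Ptbp1* had the higher mean at each stage. In wild-type pachytene libraries the ranges overlapped, at 36.6 to 44.7 for *Ptbp1* and 30.7 to 42.7 for *Ptbp2*. The order there is not settled. It also depends on the length, which was 3.45 and 4.91 kb here and is 3.17 and 3.78 kb for the longest transcripts. In KO pachytene libraries *Ptbp1* was the lower, at 36.2 against 48.7. *Dazl* per *Boll* did not change beyond the spread at the first step (0.614 to 0.770 in wild-type pachytene and 0.651 to 0.771 in round libraries, log2 difference 0.0095, adjusted p = 0.935, exact permutation test). The same ratio rose to 1.08 to 1.22 in condensing libraries, by 0.63 on the log2 scale (adjusted p = 0.00750). The Y-box genes shifted towards *Ybx2* at the first step, where *Ybx1* and *Ybx3* per *Ybx2* fell by 0.21 and 0.25 (adjusted p = 0.00750 for both, exact permutation test). At the second step these ratios changed by -0.053 and -0.034 (adjusted p = 0.690 and 0.758, exact permutation test). Their sign turned with 1 replicate number left out (-0.17 to 0.081 and -0.11 to 0.093). *Ybx1* reads per *Ybx2* read went from a mean of 0.597 to 0.525 in the wild type and from 0.598 to 0.636 in the KO, a difference between the genotypes that was not tested for this ratio.

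**Figure D4:**
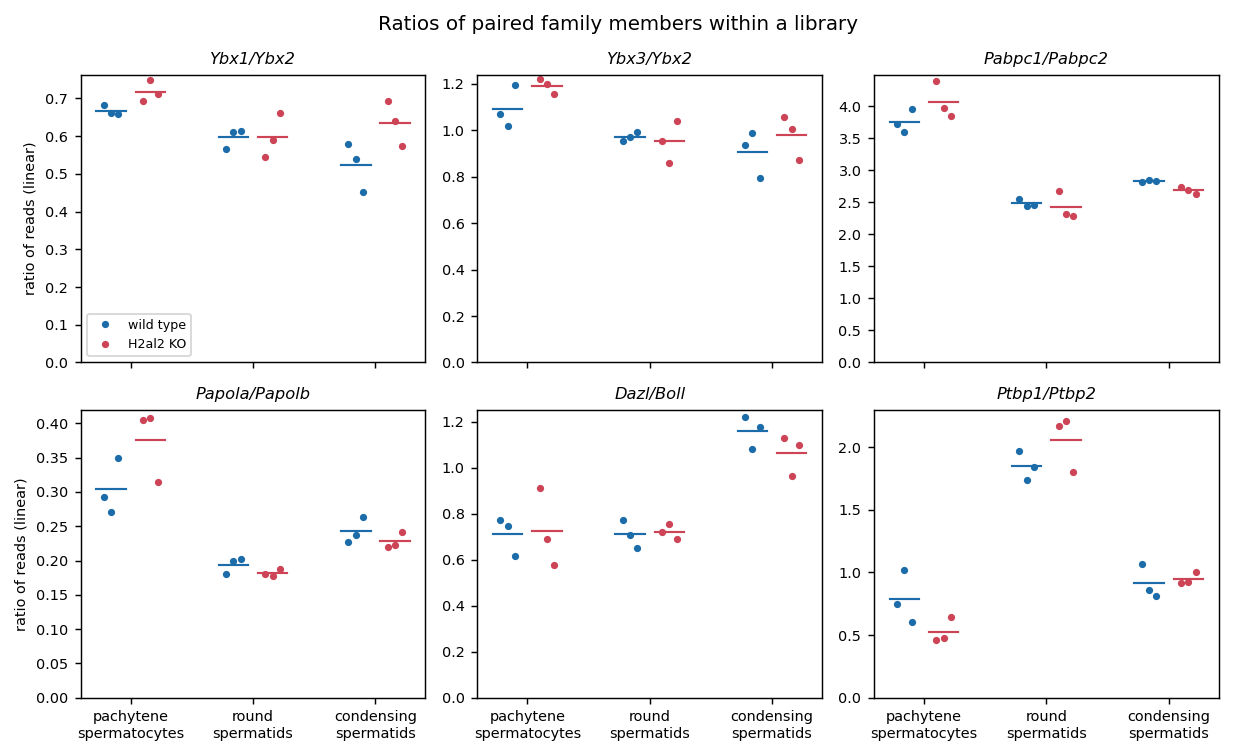
Ratio of the reads of related genes within each library, on linear axes from 0, in pachytene spermatocytes, round spermatids and condensing spermatids. Points are libraries (wild type blue, *H2al2* KO red) and bars are means of 3. *Ptbp1* per *Ptbp2* is highest in round spermatids, *Papola* per *Papolb* is lowest there, and *Dazl* per *Boll* is raised in condensing spermatids alone of these stages.

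All 10 members were lower in wild-type spermatozoa than in condensing spermatids. Of 15116 genes tested, 36.6% were higher, 35.8% lower and 72.4% passed in either direction, and the median log2 fold change was -1.74 over the members and -0.00014 over all genes. *Dazl* had 7.87 and 6.94 CPM in spermatozoa, from 27 and 20 reads, and fell 10.2-fold (log2 -3.35 ± 0.21, adjusted p = 7.19e-12, edgeR). *Papolb* had 95.3 and 104 CPM and fell 6.0-fold (-2.58 ± 0.17, adjusted p = 1.57e-11), and *Pabpc2* had 168 and 152 CPM and fell 4.40-fold (-2.14 ± 0.17, adjusted p = 4.48e-10). These were the 3 largest falls of the members.

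*Pabpc1* fell by 1.06 ± 0.18 on the log2 scale to 939 and 975 CPM (adjusted p = 1.68e-05). *Ybx1* had 216 and 219, *Ybx2* 429.7 and 450.2 and *Ybx3* 327 and 319 CPM in spermatozoa, with falls of 3.19-fold, 3.01-fold and 3.70-fold. *Ddx25* stood at 89.5 and 95.7, *Boll* at 28.0 and 22.2 and *Ptbp2* at 42.6 and 22.9 CPM, with falls of 3.51-fold, 2.61-fold and 2.42-fold. *Pabpc1* had the smallest fall with all libraries, but the fall of *Ptbp2* differed between the spermatozoa libraries, from 0.91 on the log2 scale without replicate 2 to 1.80 without replicate 1, and the order of these genes is not settled. Every spermatozoa library was below every condensing library for all 10 genes, as groups did not overlap for 80.1% of 15583 genes, and each call held under each alternative.

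Spermatozoa libraries also carried RNA of other cells. All 8 macrophage markers were higher than in condensing spermatids, with a sum of 885 to 942 CPM against 26.7 to 37.4 CPM, and the sum of 8 epididymis markers was 1812 to 1893 CPM against 0.769 to 3.16 CPM, with 3 of the 8 at 0 in spermatozoa. This sum rests on few genes, since *Crisp1* alone had 1481 to 1564 CPM, and of the 3 markers tested *Crisp1* and *Spink8* passed. The sums of 15 round spermatid markers were 1849 to 2260 CPM in spermatozoa and 2415 to 2621 CPM in condensing spermatids, while 14 of the 15 genes were lower and 1 higher, with a median log2 fold change of -2.68. The part of these other cells in the falls was not tested. The single KO spermatozoa library had 233 CPM of *Ybx2*, 276 of *Ybx3*, 94.7 of *Pabpc2*, 54.2 of *Ddx25*, 74.0 of *Papolb*, 7.92 of *Boll* and 4.57 of *Dazl*, each below both wild-type libraries. It had 237 CPM of *Ybx1*, above both, and 943 of *Pabpc1* and 26.5 of *Ptbp2*, between them. Its macrophage sum was 4257 CPM and its epididymis sum 568 CPM. Its sum of 12 Sertoli cell markers was 1403 CPM, against 249 to 294 CPM in the wild-type spermatozoa libraries. Spermatid markers were also lower in this KO library. The sum of 15 round spermatid markers was 751 CPM against 1849 to 2260 CPM. That of 11 condensing spermatid markers was 11404 CPM against 32341.5 to 36813.6 CPM. With 1 library there is no replicate check of these differences, and they were not tested.

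Loss of *H2al2* was compared with wild type within each stage. No member passed in any of the 3 stages with edgeR or DESeq2. In pachytene spermatocytes 0% of 12236 genes passed (815 at an unadjusted p under 0.05, and 2 genes with DESeq2). In round spermatids 0.0156% of 12804 genes passed (753 at an unadjusted p under 0.05, and 6 genes with DESeq2), and in condensing spermatids 0.00728% of 13734 genes (870, and 13 genes with DESeq2). A block on the replicate number gave 61 genes and no member in round spermatids. *H2afb1* passed in the spermatid stages (8.58-fold and 6.56-fold lower) and not in pachytene spermatocytes.

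The intervals bound what the members could have changed by. In round spermatids the log2 differences, KO minus wild type, ran from -0.18 for *Ptbp2* (95% interval -0.43 to 0.065) to 0.036 for *Ybx2* (-0.13 to 0.20). In condensing spermatids they ran from -0.13 for *Ybx2* (-0.42 to 0.15) to 0.14 for *Ybx1* (-0.12 to 0.40). The genotypes overlapped in every member in round spermatids and in 9 of 10 in condensing spermatids, where 10.0% of 13463 genes and 12% of 14449 genes did not overlap. The other member was *Papolb*, for which the KO libraries (672, 684 and 675 CPM) stood above the wild-type libraries (629, 643 and 582 CPM) with a log2 difference of 0.12 ± 0.11 (adjusted p = 0.928).

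In pachytene spermatocytes the differences were wider, from -0.15 for *Ybx2* (-0.40 to 0.090) to 0.44 for *Ptbp2* (0.066 to 0.82). Each of the 3 KO libraries had more *Ptbp2* than any wild-type library, with an unadjusted p of 0.0260 and an adjusted p of 0.656 in edgeR, where 11.4% of 12896 genes did not overlap between the genotypes. *Boll* and *Dazl* had differences of 0.34 (-0.27 to 0.95) and 0.42 (-0.21 to 1.05). With 1 library left out the difference ranged from 0.27 to 0.60 for *Ptbp2*, 0.075 to 0.67 for *Boll* and 0.18 to 0.66 for *Dazl*, each lowest without wild-type replicate 2, and none passed. The KO libraries here also had a higher sum of spermatocyte markers (2637 to 3312 CPM against 2197 to 2916 CPM) and a lower sum of Leydig cell markers (26.1 to 111 CPM against 82.5 to 169.9 CPM), with overlap in both. The sum of Sertoli cell markers was lower without overlap (21.4 to 38.4 CPM against 51.9 to 53.7 CPM). In round spermatids the KO sum of Leydig cell markers was also lower without overlap (6.62 to 10.99 CPM against 11.6 to 15.5 CPM). So was that of Sertoli cell markers (46.1 to 57.3 CPM against 62.3 to 86.6 CPM). In condensing spermatids the Leydig cell sum was 91.9 to 137 CPM in the KO against 153 to 239 CPM. The macrophage sum there was 18.1 to 26.4 CPM against 26.7 to 37.4 CPM. Spermatocyte sums, and the round macrophage and condensing Sertoli cell sums, overlapped. The part of these cells in the differences was not tested.

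Whether the effect of the KO differed between stages was tested as an interaction on the 18 libraries of the 3 stages. For round minus pachytene spermatocytes 0% of 14479 genes passed, with 1050 at an unadjusted p under 0.05 and 1 gene with DESeq2. For condensing minus round spermatids 0% passed, with 407 at an unadjusted p under 0.05 and 0 with DESeq2. Among the members the first interaction was widest for *Ptbp2*, at -0.63 ± 0.19 on the log2 scale (unadjusted p = 0.00346, adjusted p = 0.676), as its fall into round spermatids was 5.38-fold in the KO and 3.50-fold in the wild type. *Dazl* had -0.47 ± 0.27 and *Boll* -0.43 ± 0.27, with adjusted p = 0.679 and 0.687. With 1 library left out these values ranged from -0.70 to -0.46 for *Ptbp2*, -0.66 to -0.23 for *Dazl* and -0.66 to -0.16 for *Boll*. None of the 3 passed, so the falls were not shown to differ between genotypes. In the second interaction the members lay between -0.17 (*Ybx2*) and 0.18 (*Boll*), each with an adjusted p of 1.

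**Figure D5:**
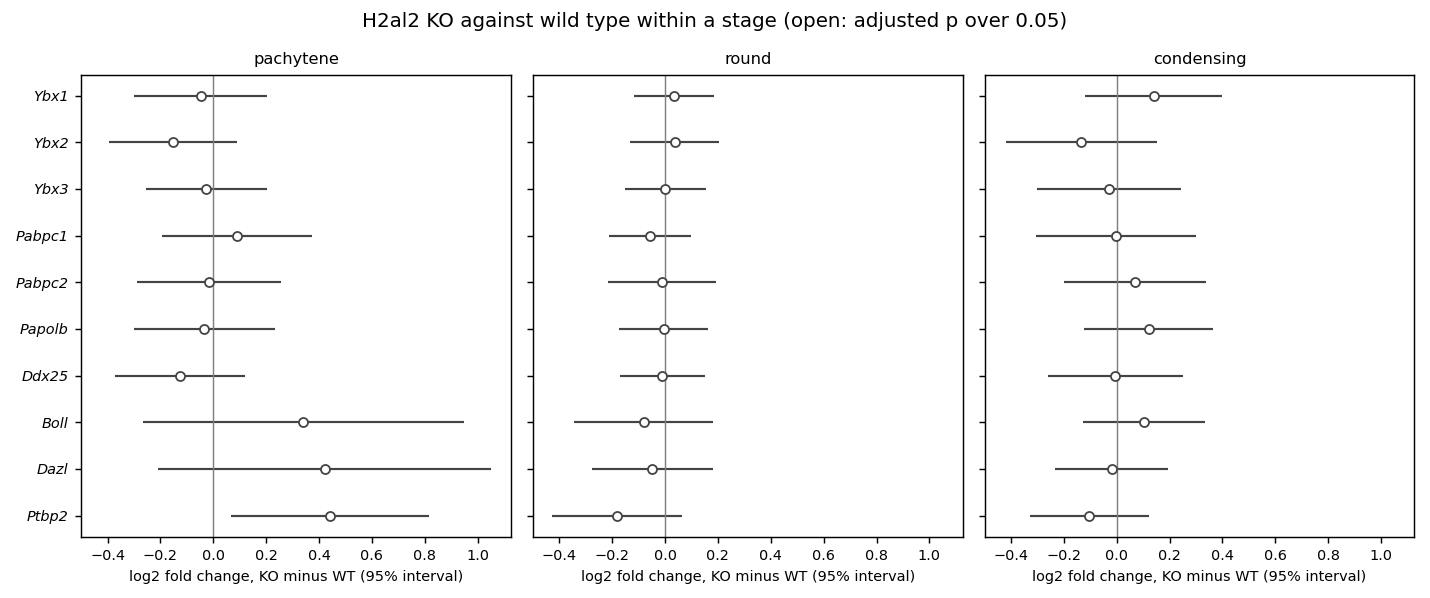
Log2 fold change of each member, *H2al2* KO minus wild type, with its unadjusted 95% interval, in pachytene spermatocytes, round spermatids and condensing spermatids (3 libraries per genotype and stage). All points are open, since no adjusted p was under 0.05. The widest intervals are those of *Boll* (-0.27 to 0.95) and *Dazl* (-0.21 to 1.05) in pachytene spermatocytes, and that of *Ptbp2* there (0.066 to 0.82) is the 1 interval that does not reach 0.

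Other genes of the same machinery were counted from 7 lists. Of 16 tested genes of poly(A) polymerases and poly(A)-binding proteins, 11 rose and 3 fell from pachytene spermatocytes to round spermatids in the wild type, with a median log2 fold change of 0.88, where 34.4% of all genes rose, 35.9% fell and the median was -0.016. *Fam46d*, of the noncanonical poly(A) polymerases, rose 7.12-fold, and *Paip1*, whose product binds PABPC1 and aids translation, fell 7.57-fold. Of 25 genes of deadenylation and mRNA decay 3 rose and 15 fell, with a median of -0.74. *Parn*, a poly(A)-specific ribonuclease, rose 2.19-fold, and *Cnot8*, a catalytic subunit of the CCR4-NOT deadenylase, fell 6.46-fold.

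The remaining lists of the machinery are read against the same shares of all genes at this step. Of 27 regulators such as the PUM and CPEB proteins, 11 rose and 12 fell (median -0.23), with *Cpeb3* up 4.30-fold and *Adad2* down 9.41-fold. Of 16 RNA helicase and granule genes 6 rose and 6 fell (median -0.20), with the Y-linked helicase gene *Ddx3y* up 3.72-fold and *G3bp1*, of stress granules, down 6.46-fold. Of 21 initiation factor genes 5 rose and 6 fell (median 0.014), with *Eif2s3y* up 5.72-fold and *Eif4a2* down 2.18-fold. Of 17 relatives of PTBP2 and other splicing regulators 1 rose and 12 fell (median -1.05), with *Nova2* up 2.60-fold and *Hnrnpl* down 8.12-fold. *Ptbp2* also fell at this step.

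The mRNAs known to be stored for late translation rose, 14 of 15 with none lower and a median log2 fold change of 2.55, led by the protamine gene *Prm1* at 7.16-fold. Much of this list is shared with the condensing spermatid markers, among them *Prm1*, *Prm2*, *Tnp1*, *Tnp2* and *Odf1*. The list was therefore not independent of stage, and its rise says nothing of storage itself. From round to condensing spermatids 4 of these 15 rose and 1 fell, where 28.3% of all genes rose and 21.8% fell, with *Odf1*, of the sperm tail fibres, up 1.85-fold and *Ldhc*, a testis lactate dehydrogenase, down 1.31-fold. In the other lists 3 rose and 2 fell of 16 poly(A) genes (*Paip1* up 3.33-fold, *Fam46b* down 1.75-fold), 8 and 3 of 25 decay genes (*Cnot8* up 3.40-fold, *Cnot4* down 1.54-fold) and 6 and 4 of 27 regulators (*Adad2* up 2.16-fold, *Adad1* down 1.95-fold). Of helicase and granule genes 6 rose and 4 fell (*Ddx3x* up 4.23-fold, *Tdrd7* down 1.76-fold), of initiation factors 5 and 4 (*Eif2s3x* up 4.0-fold, *Eif4ebp3* down 1.88-fold) and of splicing regulators 7 and 2 (*Celf2* up 3.36-fold, *Raver1* down 1.65-fold). No gene of the 7 lists passed between KO and wild type at any of the 3 stages.

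The members differed in their course over the 18 libraries before spermatozoa. Pearson's r of log2 CPM was 0.91 between *Ybx1* and *Ybx3*, 0.95 between *Ybx3* and *Ddx25* and 0.94 between *Ybx3* and *Pabpc1*. *Papolb* and *Ptbp2* ran opposite, with r = -0.96, and *Ybx2* and *Dazl* with r = -0.84. *Boll* went with *Ptbp2* (0.80) more than with *Dazl* (0.59). These libraries fall into 3 stages, so the values describe the shared stage pattern.

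Among 8369 genes with a mean of at least 10 CPM, those most like the members below over the same 18 libraries were named by the 2 highest r. *Ybx1* was most like *Spink2* (0.981) and *Cenpv* (0.972), *Ybx2* like *Sidt2* (0.953) and *Limd2* (0.949), and *Ybx3* like *Ggnbp1* (0.990) and *Usp20* (0.988). *Pabpc2* was most like *Hcfc2* (0.975) and *Dynlrb2* (0.973), and *Papolb* like *Cd55b* (0.989) and *Erich6* (0.987). *Ddx25* was most like *Zfp646* (0.992) and *Ruvbl2* (0.990). *Boll* was most like *Fnip1* (0.974) and *Smarca5* (0.973), *Dazl* like *Phip* (0.937) and *Exoc5* (0.933), and *Ptbp2* like *Cbx5* (0.995) and *Sub1* (0.994). No member was among the 2 genes most like another member.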

How the data were processed

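RNA from purified mouse spermatogenic fractions was sequenced as ribosome-depleted, stranded total RNA with paired 75-base reads. Reads were not trimmed. The authors used STAR 2.7.11b for alignment on mm10, counted reads per gene with HTSeq on exons with the strand, leaving out reads that aligned to several places, and deposited raw counts. The deposited counts were used as they are, without the rows that name no gene. The 10 members and all gene and marker lists were chosen with earlier results of these data known. The genes named from each list are the largest rise and the largest fall past the threshold at each wild-type step.

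Libraries were grouped by stage and genotype as labelled. Tests used edgeR 4.0.16 (R 4.3.3, TMM scaling, filterByExpr, quasi-likelihood test with Benjamini-Hochberg adjustment over all genes tested, threshold 0.05), with wild-type or KO libraries of the 3 stages in 1 fit for stage changes, 6 libraries for each KO comparison and 18 for interactions. Standard errors were taken from the log2 fold change and its F statistic. Levels are CPM scaled by TMM over 21 libraries, and per kb by the union of GENCODE M21 basic exons (mm10). Ratios used reads plus 0.5. Alternatives were DESeq2 1.42.0, its size factors, library size only, no filter, the replicate number as a block, each library left out, 1 fit on 18 libraries, and, chosen after seeing the data, 2 similar round libraries summed and RefSeq gene limits. The test script recovered large known changes in simulated counts, where 200 genes changed and the rest did not. Changes as small as most of those of the members before spermatozoa were not simulated. Same-numbered wild-type and KO round libraries deviated together (correlations 0.436, 0.230 and 0.113 over genes), and in no other pair of groups did all 3 numbers do so. Deviations were taken from group means, and wild-type round replicates 2 and 3 were nearly alike. The 3 values are therefore tied to each other and cannot decide whether numbers pair libraries. Precision is limited by the counts per library given above, and limits on counts of 0 cover counting error only. The genes most like *Pabpc1* are not reported here.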

Additional observations from a re-analysis of the deposited data

How the results depend on the processing

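At the first wild-type step 3 members passed. The count was 5 with scaling by library size only, 4 without the filter on low counts, and 3 to 5 with 1 library left out, with 5 reached without wild-type pachytene replicate 2. With the replicate number as a block, 3 and 7 members passed at the wild-type steps, 7 and 9 at the KO steps and 0 between genotypes, and the 1 call that changed was *Ybx3* at the second wild-type step (adjusted p = 0.0516). The labels do not say whether numbers pair libraries there, and same-numbered round and condensing libraries had correlations of 0.346, -0.254 and 0.403. Over all genes, the counts between KO and wild type in pachytene, round and condensing libraries were 2, 6 and 13 with DESeq2, 1, 28 and 27 without a filter, 0, 61 and 26 with the block, and 4, 1 and 1 in the fit on 18 libraries. They rose to 243 without wild-type pachytene replicate 3, to 264 without wild-type round replicate 1 and to 24 without wild-type condensing replicate 2. In the wild-type libraries alone, where an exact permutation test cannot go below p = 0.1, the log2 ratio changed by -0.64 for *Papola* per *Papolb* and by 1.26 for *Ptbp1* per *Ptbp2* at the first step, and by -0.19 for *Ybx1* per *Ybx2* at the second. The summed CPM of the members was 9656 in wild-type pachytene and 10449 in round libraries with DESeq2 size factors, and 10729.5 and 9626 with library size only. The cause was not tested. Spermatozoa, with the fewest counts, limit the low members most.

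The single genes that changed sign were these, none of them past the threshold in either setting, on the log2 scale. With DESeq2 Wald test the values were 0.0011 (*Ddx25*) and 0.0038 (*Pabpc1*) in KO against wild-type condensing spermatids and -0.0021 (*Ddx25*) in the second interaction. With the replicate number as a block the values were 0.0020 (*Ddx25*) and 0.0032 (*Pabpc1*) in KO against wild-type condensing spermatids and -0.00021 (*Ybx3*) in KO against wild-type round spermatids. With no filter the values were 0.0019 (*Pabpc1*) in KO against wild-type condensing spermatids, -0.0099 (*Ddx25*) in the first wild-type step and 0.0044 (*Papolb*) in KO against wild-type round spermatids. With the fit on 18 libraries the values were 0.0014 (*Pabpc1*) in KO against wild-type condensing spermatids and 0.0013 (*Papolb*) in KO against wild-type round spermatids. With DESeq2 size factors the values were -0.0035 (*Ddx25*) in the second interaction. With scaling by library size only the values were -0.042 (*Ddx25*) and -0.012 (*Dazl*) in the second interaction, -0.14 (*Ybx1*) and -7.39e-06 (*Ddx25*) in the first KO step, -0.11 (*Ybx2*) and -0.16 (*Ddx25*) in the first wild-type step and 0.0020 (*Ddx25*), 0.0069 (*Papolb*) and 0.00082 (*Pabpc2*) in KO against wild-type round spermatids. With round replicates 2 and 3 summed, chosen after seeing the data, the values were -0.0059 (*Ybx3*), 0.011 (*Papolb*) and 0.0013 (*Pabpc2*) in KO against wild-type round spermatids. For KO against wild-type condensing spermatids the values without 1 library ranged from -0.087 to 0.036 (*Ybx3*), -0.10 to 0.081 (*Ddx25*), -0.089 to 0.078 (*Pabpc1*), -0.016 to 0.15 (*Pabpc2*) and -0.072 to 0.014 (*Dazl*). For the first interaction the values without 1 library ranged from -0.047 to 0.14 (*Pabpc2*). For the second interaction the values without 1 library ranged from -0.076 to 0.046 (*Ybx3*), -0.078 to 0.10 (*Ddx25*), -0.021 to 0.14 (*Pabpc1*), -0.020 to 0.11 (*Dazl*) and -0.0037 to 0.19 (*Ptbp2*). For the first KO step the values without 1 library ranged from -0.070 to 0.065 (*Ybx1*). For the first wild-type step the values without 1 library ranged from -0.0073 to 0.15 (*Ybx2*) and -0.049 to 0.086 (*Ddx25*). For KO against wild-type pachytene spermatocytes the values without 1 library ranged from -0.099 to 0.0015 (*Ybx1*), -0.062 to 0.0027 (*Ybx3*), -0.12 to 0.026 (*Papolb*), -0.013 to 0.18 (*Pabpc1*) and -0.090 to 0.046 (*Pabpc2*). For KO against wild-type round spermatids the values without 1 library ranged from -0.029 to 0.043 (*Ybx3*), -0.035 to 0.037 (*Ddx25*), -0.057 to 0.051 (*Papolb*), -0.11 to 0.085 (*Pabpc2*) and -0.11 to 0.027 (*Dazl*). The cause was not tested.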
